A study of Arabidopsis thaliana with 10 samples.

Results

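Of the 37318 intragenic H3K27ac peaks in the peak lists of 4 stages of flower development, 3021 had their summit more than 1 kb downstream of the transcription start site (TSS) of the protein-coding gene that held it. These far peaks were chosen by the measured position of the summit, the point of highest enrichment, inside the gene and by its distance to the TSS. Where genes overlapped, the nearest TSS of the genes holding the summit was used. Peaks that overlapped between stages were joined, which left 1427 far regions on 1355 genes. The distance itself is therefore a description of the selection. Stage by stage there were 1098 far peaks among 11147 intragenic ones (S0), 611 among 8402 (S2), 640 among 8819 (S4) and 672 among 8950 (S8). Where 4 values follow each other below without a label, they are in this stage order.

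H3K27ac was profiled by ChIP-seq in inflorescences of *Arabidopsis thaliana* plants of the genotype pAP1::AP1-GRap1cal in the Ler ecotype, with 2 replicates per stage and 2 input libraries labelled as stage 2 and stage 4. The line lacks functional *AP1* and *CAL* and carries AP1 fused to the glucocorticoid receptor (GR) under the *AP1* promoter, so that dexamethasone, given daily at 2 μM, starts flower development in many meristems at once. The stages are S0 (inflorescence meristem), S2 (stage 2 flowers), S4 (stage 4-5) and S8 (stage 7-8), reached 0, 2, 4 and 8 days after induction. S0 tissue was collected before the first dexamethasone treatment. Effects of stage and of treatment therefore cannot be told apart where S0 is set against the later stages. Each list was made from the pooled replicates of its stage, so no value per replicate was analysed, and because whole inflorescences were used, a mark carried by fewer cells and a weaker mark in each cell cannot be told apart.

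H3K27ac is the acetylation of lysine 27 on histone H3. It loosens the hold of histones on DNA, is read by proteins with a bromodomain, and accompanies transcription. In plants it is known mainly from the first nucleosomes downstream of the TSS of active genes, which makes summits deep in a gene the exception. Of the genes looked up to check the tissue, *AP1* had an intragenic peak at all 4 stages, *STM* at S0 and S2, *LFY* at S2, S4 and S8 and *SEP3* at S8, while *AG* (AGAMOUS, which acts in the inner floral organs) had none. Because the line carries both the *AP1* transgene and the endogenous *AP1* locus, the *AP1* peak cannot be assigned to either of them.

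The sequence under a far summit was usually protein-coding and rich in G and C, and a minority of summits lay in AT-rich introns. To show both kinds, the summit base with 100 bases on either side is given for sites in 7 genes, from the RefSeq TAIR10.1 genome, 5′ to 3′ on the strand of the gene. Capitals mark a match, on either strand, to 1 of 4 motifs that were searched: the CArG box bound by MADS domain proteins, the G-box CACGTG, the GAGA repeat GAGAGAGA and the telo-box AAACCCTA. *GATA1* holds the strongest far peak of every list, *CLV1* and *KNAT2* stand for meristem regulators with a summit in an exon, the *KNAT2*, *FUL* and *AP2* introns for AT-rich sites, and *MP* and *AT3G51950* for windows with a motif.
GATA1, S2, coding exon, chr3:8687038-8687238, plus strand: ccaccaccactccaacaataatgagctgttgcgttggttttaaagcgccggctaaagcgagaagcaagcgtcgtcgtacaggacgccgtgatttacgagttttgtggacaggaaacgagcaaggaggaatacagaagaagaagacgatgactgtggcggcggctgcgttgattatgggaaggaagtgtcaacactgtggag
CLV1, S0, coding exon, chr1:28465119-28465319, minus strand: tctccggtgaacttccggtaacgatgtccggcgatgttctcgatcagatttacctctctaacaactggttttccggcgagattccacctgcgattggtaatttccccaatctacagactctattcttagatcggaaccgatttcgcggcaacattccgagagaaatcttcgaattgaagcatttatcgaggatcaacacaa
KNAT2, S0, coding exon and intron, chr1:26581652-26581852, plus strand: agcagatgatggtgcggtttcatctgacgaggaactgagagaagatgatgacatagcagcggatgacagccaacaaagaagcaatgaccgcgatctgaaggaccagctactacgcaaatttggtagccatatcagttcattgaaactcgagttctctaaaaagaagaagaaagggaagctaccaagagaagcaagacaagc
KNAT2, S0, intron, chr1:26578719-26578919, plus strand: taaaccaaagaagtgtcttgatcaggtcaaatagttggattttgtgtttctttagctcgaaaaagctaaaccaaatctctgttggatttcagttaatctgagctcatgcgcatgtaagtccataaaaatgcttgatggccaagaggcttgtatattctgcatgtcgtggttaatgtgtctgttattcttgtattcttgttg
FUL, S0, intron, chr5:24505022-24505222, minus strand: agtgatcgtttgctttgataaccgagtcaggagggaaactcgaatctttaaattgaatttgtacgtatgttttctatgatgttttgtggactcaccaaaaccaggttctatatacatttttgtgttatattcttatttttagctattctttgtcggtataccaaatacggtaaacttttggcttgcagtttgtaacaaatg
AP2, S4, intron and coding exon, chr4:17402166-17402366, plus strand: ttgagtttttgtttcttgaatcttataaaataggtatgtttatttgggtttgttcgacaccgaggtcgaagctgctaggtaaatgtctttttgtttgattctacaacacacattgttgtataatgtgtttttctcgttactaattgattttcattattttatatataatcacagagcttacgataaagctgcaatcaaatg
MP, S0, coding exon and intron, chr1:6888182-6888382, plus strand: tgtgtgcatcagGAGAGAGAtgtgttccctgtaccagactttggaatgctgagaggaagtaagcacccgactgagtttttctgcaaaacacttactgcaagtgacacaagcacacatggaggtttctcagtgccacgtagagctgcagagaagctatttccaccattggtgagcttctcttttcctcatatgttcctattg
AT3G51950, S0, coding exon, chr3:19279885-19280085, minus strand: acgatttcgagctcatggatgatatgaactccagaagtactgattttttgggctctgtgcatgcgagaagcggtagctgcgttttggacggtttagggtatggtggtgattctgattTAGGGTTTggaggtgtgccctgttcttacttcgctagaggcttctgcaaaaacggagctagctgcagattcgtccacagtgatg

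In these windows the G and C content was 51.2% at *GATA1*, 45.8% at *CLV1* and 45.3% at the *KNAT2* exon, against 36.8% at the *KNAT2* intron, 33.3% at the *FUL* intron and 30.3% at *AP2*. Over all far peaks the median was 45.8%, against 42.8% at intragenic summits within 1 kb of the TSS and 38.5% over all gene bases more than 1 kb from the TSS. Far summits in coding exons had a median of 47.8% and those in introns 37.8%. The *MP* window has a GAGA repeat and the *AT3G51950* window a telo-box, read as TAGGGTTT on the strand of the gene.

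All 4 motifs were uncommon at far summits. A telo-box was found in the windows of 2.52% of far regions (95% Wilson interval 1.83 to 3.47), against 9.36% of windows of the same length at intragenic summits within 1 kb of the TSS. The GAGA repeat was found in 3.92% (3.03 to 5.06) against 7.34%, and the CArG box in 0.420% (0.193 to 0.914) against 1.13%. The G-box went the other way, with 3.43% (2.61 to 4.51) against 1.84%. Among windows in coding exons alone, the telo-box was found in 2.11% of far regions and in 6.15% of summits within 1 kb, the GAGA repeat in 3.94% and 6.90%, and the G-box in 4.22% and 2.61%. For the CArG box the values there were 0.459% (0.196 to 1.07) and 0.821% (0.707 to 0.954), and the intervals overlapped. These intervals, like all below, cover counting error over peaks or regions only, since regions are not replicates of a stage. The far regions were joined over stages, while the nearer summits here were counted per list. Where peaks of the 4 lists are pooled, a region listed at several stages counts at each, so its peaks are not independent.

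Far summits lay at a median distance of 1483 bp from the TSS, with an interquartile range of 1195 to 2122 bp and a maximum of 12196 bp. At S0 the peaks nearest beyond the limit were on *ICME-LIKE1* and *AT5G49100* (1 bp past it) and on *RLT2* (2 bp), with fold enrichments of 4.66, 5.76 and 3.23. Nearest within it were peaks on *UBC14* and *OZF1* (1 bp short of it) and on *AT4G21060* (2 bp), with 2.97, 4.96 and 3.15. The values of these 6 peaks overlapped across the limit. Over the 3021 far peaks the median length of the gene was 2870 bp, and the median far summit lay 60.7% of the way along its gene and 999 bp from the gene end. Only 15.6% of far summits (14.3 to 16.9) fell within 500 bp of the gene end, a zone that holds 26.0% of gene bases beyond 1 kb.

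Far peaks took 9.85% of the intragenic peaks of the S0 list (9.31 to 10.4). In the later lists they took 7.27% (6.74 to 7.85), 7.26% (6.73 to 7.82) and 7.51% (6.98 to 8.07). The S0 interval lies above the other intervals, which overlap each other. This order ended when only the 50% of peaks with the largest −log10 p per list were kept, where the shares were 8.29%, 8.51%, 8.70% and 8.77%. The S0 list is also the longest, with 11583 peaks against 8608, 9114 and 9235.

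Most far summits were in coding exons. Of the 1427 far regions, 76.4% (74.1 to 78.5) had the summit in a coding exon, 212 (14.9%, 13.1 to 16.8) in an intron, 88 (6.17%, 5.03 to 7.54) in a 3′ UTR and 37 (2.59%, 1.89 to 3.55) in a 5′ UTR. Gene bases more than 1 kb from the TSS are 53.2% coding exon, 30.4% intron, 15.7% 3′ UTR and 0.735% 5′ UTR. Far summits were thus found in coding exons more often, and in introns and 3′ UTRs less often, than these bases. Here and elsewhere the gene bases are those of all 23063 protein-coding genes longer than 1 kb, of which 11571 had a peak. They were not matched to the far summits for distance from the TSS. Intragenic summits within 1 kb were in coding exons in 60.3% and in introns in 24.8%. These nearer summits were counted per list and not joined over stages, here, for exon length and for the motifs above. The exons holding far summits were long, with a median of 935 bp, against 576 bp for exons holding nearer summits. The introns holding far summits had a median length of 119.5 bp, while far peaks had a median width of 863 bp. A summit in so short an intron cannot be separated from the exons beside it. Part of the difference in exon length is fixed by the rule, since an exon that runs from the TSS to a far summit must be longer than 1 kb. The share of intron summits was 10.96% among the stronger 50% of each list, and 18.5% when each peak was placed by its midpoint.

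**Figure D1:**
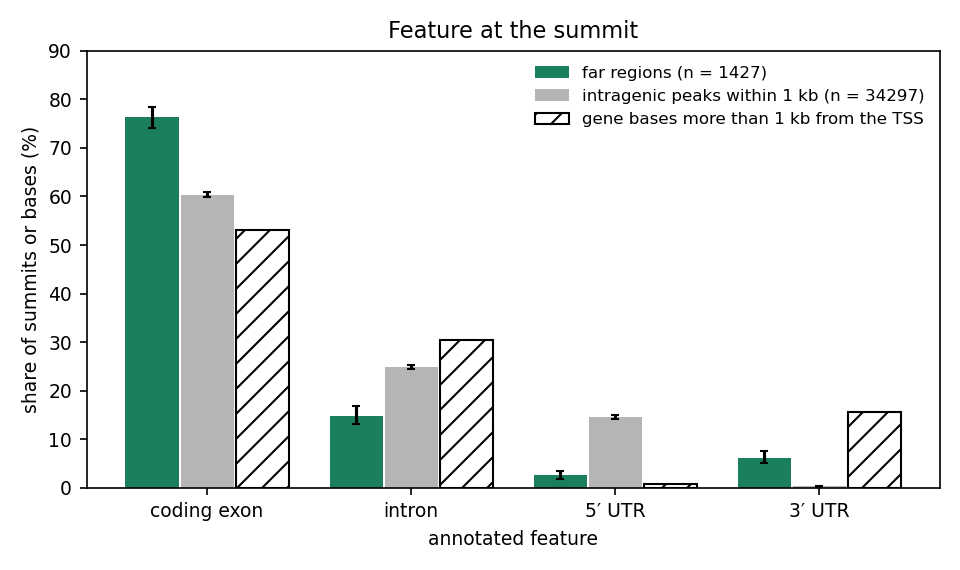
Share of summits in each annotated feature (y axis, percent) for the 1427 far regions (green) and the 34297 intragenic peaks within 1 kb of the TSS (grey), with 95% Wilson intervals, beside the share of gene bases more than 1 kb from the TSS (hatched). Far regions stand at 76.4% coding exon against 53.2% of bases, and at 14.9% intron against 30.4%.

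The genes that held far summits had few introns before them. In 428 far regions (30.0%, 27.7 to 32.4) no whole intron of the representative transcript lay between the TSS and the summit. In 802 (56.2%, 53.6 to 58.8) at most 1 did. Only introns that end before the summit were counted. A summit inside the first intron, or before the first exon of that transcript, thus has none before it. Of gene bases more than 1 kb from the TSS, 10.1% have no intron before them and 23.1% at most 1. This pattern was noticed in the data and then described further. The number of introns before a position can only rise along a gene, and these bases were not matched to the summits for distance. How much of the gap comes from unlike distances was not tested.

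A far summit was found in 1355 of the 11571 genes longer than 1 kb that had an intragenic peak at any stage (11.7%, 11.1 to 12.3). By number of introns, the share was 18.4% of 1198 genes without an intron (16.4 to 20.7), 15.0% of 1350 genes with 1 intron (13.2 to 17.0), 13.1% with 2 to 3, 11.2% with 4 to 6, 8.76% with 7 to 10 and 7.66% of 1866 genes with 11 or more (6.54 to 8.96). Longer genes hold more bases beyond 1 kb, and genes with many introns are longer, so genes were also compared at like length. Among genes of 2.0 to 2.5 kb, the share was 34.3% without an intron (28.6 to 40.5), 15.8% with 2 to 3 introns (13.0 to 19.0) and 2.18% with 7 to 10 (1.11 to 4.24). Among genes of 3.0 to 4.0 kb it was 20 of 50 genes without an intron (27.6% to 53.8%), 22.0% with 2 to 3 and 4.96% with 11 or more (3.35 to 7.27). In genes of 1.0 to 1.5 kb, where few bases lie beyond the limit, the 4 intron classes with over 20 genes stood between 1.04% and 2.61%, with overlapping intervals.

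The fall with intron number was present in each list. The lists are not independent of each other, since 318 far regions had a far peak in all 4. Genes without an intron stood at 14.9%, 13.4%, 13.3% and 13.7%, and genes with 11 or more introns at 7.24%, 4.02%, 4.75% and 4.78%. The intervals of the pair did not overlap at any stage. The nearest pair was at S0, with 12.9 to 17.1 for genes without an intron and 6.07 to 8.61 for those with 11 or more. With the stronger 50% of each list the values were 17.5% and 5.74%. They were 14.6% and 3.44% when far peaks were left out for genes whose far region had another annotated start nearby. Such genes still counted, as genes without a far peak, if they had a peak within 1 kb of the TSS. Both of these settings were chosen after seeing the data.

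**Figure D2:**
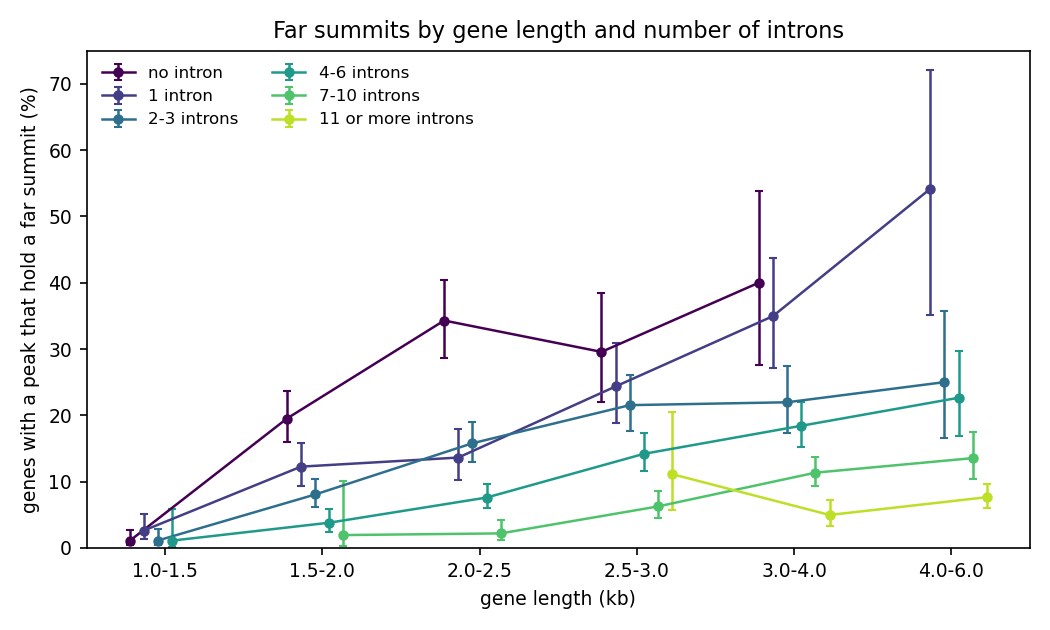
Share of protein-coding genes with an intragenic peak that held a far summit at any stage (y axis, percent), by gene length (x axis, kb) and number of introns of the representative transcript (colours), with 95% Wilson intervals over genes. Classes with under 20 genes are left out. Among genes of 2.0 to 2.5 kb the share runs from 34.3% without an intron to 2.18% with 7 to 10 introns.

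Some protein families held far summits more often than the 11.7% of all genes with a peak. The families were chosen after their values were seen, and were read from the product names in the annotation. A far summit was found in 12 of 16 genes of GRAS proteins (50.5% to 89.8%), regulators that include repressors of gibberellin response, and in 48 of 101 leucine-rich repeat genes (47.5%, 38.1 to 57.2), many of which encode receptor kinases. It was also found in 13 of 30 aspartyl protease genes (43.3%), 15 of 37 cytochrome P450 genes (40.5%) and 33 of 96 homeobox genes (34.4%, 25.6 to 44.3). Kinases in general stood at 18.5% (127 of 688). Genes of pentatricopeptide or tetratricopeptide repeat proteins stood below the average at 6.65% (4.47 to 9.78), and so did those of helicases (3 of 80, 3.75%) and ribosomal proteins (8 of 295, 2.71%). The families were not compared at like gene length or number of introns, with which the share varied. Whether their shares follow from gene structure was not tested.

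Another annotated start lay within 1 kb of the summit in 554 far regions (38.8%, 36.3 to 41.4), against 22.3% of gene bases beyond 1 kb. An alternative start of the same gene was within reach in 278 regions (19.5%, 17.5 to 21.6, against 5.71% of bases). The summit lay downstream of it in 264 of these, at a median distance of 603 bp over the 278. The start of another protein-coding gene was within 1 kb in 211 regions (14.8%, 13.0 to 16.7, against 12.2% of bases). The summit fell upstream of that start in all but 4 of the 211, which the rule largely fixes, since a summit inside another gene and within 1 kb of its TSS is not far. The other gene was on the same strand in 157. A gene of another type started within 1 kb in 134 regions (9.39%, 7.98 to 11.01, against 5.74% of bases), of which 90 were long non-coding RNAs and 15 tRNAs, and in 110 it lay on the opposite strand. The other 873 far regions had no other annotated start within 1 kb.

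When the nearest start of any annotated transcript was used in place of the outermost start of the gene, the far share was 8.07%, 5.93%, 5.82% and 5.99%. Far peaks without another start nearby had a median fold enrichment percentile of 53.7, and those with one 49.2.

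Far peaks took a broad range of strengths. Strength is given as the percentile of the fold enrichment over the control among all peaks of the stage's list, where each band of 20 percentiles holds 20% of a list by construction. Far peaks were most frequent in the top 20%, with 829 of 3021 (27.4%, 25.9 to 29.1), and in the bottom 20%, with 716 (23.7%, 22.2 to 25.3). The band from 40 to 60 held 461 (15.3%, 14.0 to 16.6). The 34297 nearer intragenic peaks stood between 19.3% and 20.6% in every band. In these pooled counts a region listed at several stages counts at each of them. The 318 regions far at all 4 stages gave 1307 of the 3021 far peaks, at a median percentile of 76.0. The 472 regions far at S0 only gave 472, at 16.9. By stage, the top 20% held 21.8% (19.4 to 24.3), 30.1%, 31.4% and 30.5% of far peaks, and the bottom 20% held 31.97% (29.3 to 34.8), 18.8%, 18.4% and 19.6%. S0 differed from the other stages by its many weak far peaks.

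**Figure D3:**
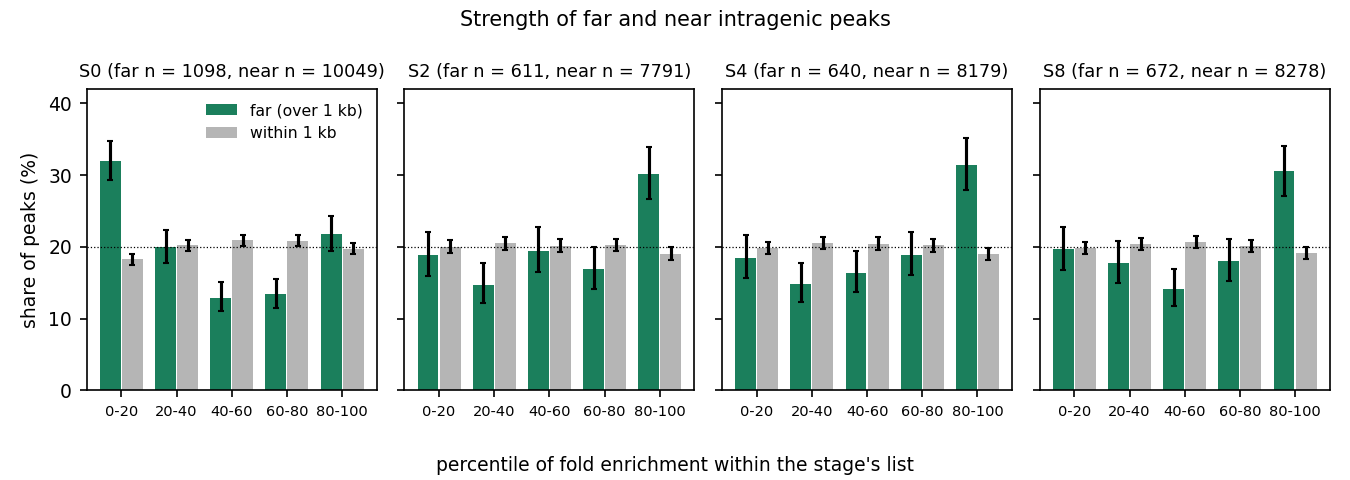
Share of far peaks (green) and of intragenic peaks within 1 kb of the TSS (grey) in each band of 20 percentiles of fold enrichment of their stage's list (x axis, percentile; y axis, percent of peaks), with 95% Wilson intervals. The dotted line marks 20%. Far peaks stand at 31.97% in the bottom band for S0, and at 30.1%, 31.4% and 30.5% in the top band for the 3 later stages.

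The strong and the weak far peaks differed in shape and place. Those in the top 20% had a median width of 1344 bp, a median G and C content of 49.3% and a median exon length at the summit of 1456 bp. Those in the bottom 20% had 539.5 bp, 43.8% and 771 bp. The gene had no intron in 30.8% of far peaks of the top 20% (27.7 to 34.0) and in 12.8% of the bottom 20% (10.6 to 15.5). The summit was in an intron in 4.70% (3.46 to 6.37) and 16.5% (13.9 to 19.4). Nearer intragenic peaks also had more G and C in the top 20%, with a median of 46.3% against 41.8%. They were also wider there, with a median of 938 bp against 628 bp, and lay in genes with fewer introns, with a median of 3 against 5.

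Far peaks were not all detached from the start of the gene. The TSS itself was covered by 31 of them (1.03%), with a median width of 2059 bp. Another 1412 (46.7%, 45.0 to 48.5) reached to within 1 kb of the TSS, and 1578 (52.2%, 50.5 to 54.0) lay wholly beyond it. Peaks that reached within 1 kb were wide, with a median of 1244 bp, and had a median strength percentile of 69.3. Those wholly beyond were 645 bp wide with a median percentile of 35.2. A peak ran past the end of the gene in 4.80%.

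A separate peak near the TSS of the same gene, in the same list, accompanied 35.9% of far peaks at S0 (33.1 to 38.8). At the later stages it accompanied 17.5% (14.7 to 20.7), 15.0% (12.4 to 17.97) and 17.7% (15.0 to 20.8). The far peaks that had such a partner were weak, with a median percentile of 23.6, against 61.5 for those without one. Over all lists the share was 23.7%, and it was 6.55% with the stronger 50% of each list and 10.99% when peaks of a list within 500 bp were joined. Of the 1355 genes with a far peak, 823 (60.7%, 58.1 to 63.3) had a peak within 1 kb of the TSS at some stage.

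About 2% of far summits lay on repeated sequence, where reads from several places can pile up. Stage by stage the shares were 2.004%, 2.13%, 16 of 640 peaks and 2.98%, against 0.995%, 0.218%, 0.917% and 1.06% of nearer intragenic summits. Without such peaks the far share stayed inside its interval at each stage, with 9.76%, 7.14%, 7.15% and 7.37%.

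Across stages, 318 far regions (22.3%, 20.2 to 24.5) had a far peak in all 4 lists, and 694 (48.6%, 46.0 to 51.2) in a single list. Of the single-list regions, 472 belonged to S0, 73 to S2, 55 to S4 and 94 to S8. No overlapping peak of any kind was present in the other lists for 316, 16, 19 and 51 of these. The remaining single-list regions kept a peak elsewhere whose summit was not far. The peaks found far at S0 only had a median strength percentile of 16.9 and a median width of 451 bp. Those of regions far at all 4 stages had 76.0 and 963 bp.

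Where far peaks of different lists overlapped, their summits lay close together. Of the 611 far peaks at S2, 93.5% overlapped a peak of any kind at S0 (91.2 to 95.2) and 74.6% overlapped a far peak (71.04 to 77.9). Of the 1098 far peaks at S0, 56.8% overlapped a peak at S2 and 40.9% a far peak (38.0 to 43.8). The median shift of the summit between overlapping far peaks was 53 to 72 bp over the 12 ordered pairs of lists.

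**Figure D4:**
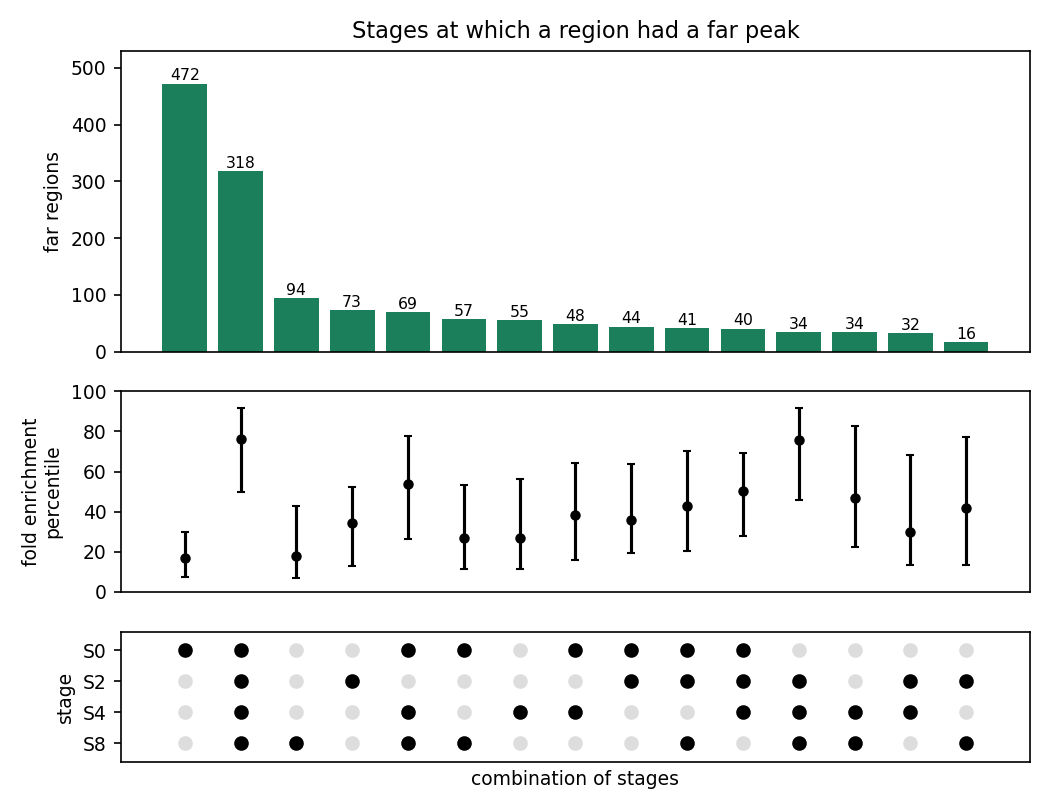
Number of far regions with a far peak at each combination of stages (top, bars), with the median and interquartile range of the fold enrichment percentile of their far peaks (middle, points and lines) and the stages of each combination (bottom, black points). Regions far at S0 only (472) have a median percentile of 16.9, and those far at all 4 stages (318) one of 76.0.

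The strongest regions far at all 4 stages were led by genes with no or few introns. *GATA1* (AT3G24050), a zinc finger transcription factor gene on the plus strand of chromosome 3 from 8685739 to 8687726, has 1 intron. Its far summit lay in exon 2, 1334 to 1399 bp from the TSS, with fold enrichments of 14.6, 10.7, 11.3 and 12.9. Each of these was the highest of any far peak in its list. Its width was 943 bp at S2, where a separate peak near the TSS was listed, and 1829 to 1968 bp in the other lists.

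*ADT5* (AT5G22630) encodes an arogenate dehydratase of phenylalanine synthesis and has no intron. Its fold enrichments were 12.6, 9.47, 10.3 and 10.9, with summits from 1142 to 1187 bp after the TSS. *AT5G62560*, an intronless gene annotated as a U-box protein with ARM repeats, had 13.4, 7.85, 10.6 and 10.02. *RAP2.4* (AT1G78080), an intronless gene of an AP2/ERF transcription factor, stood between 7.72 and 9.01. *CYP86A8* (AT2G45970), an intronless cytochrome P450 gene whose enzyme hydroxylates fatty acids for the cuticle, stood between 6.03 and 9.999, with its summit 1811 to 1905 bp from the TSS. In these 4 genes the summit lay in the single exon, which spans the whole gene.

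The other 5 of the 10 strongest had introns. *TPR14* (AT5G65160), annotated as a tetratricopeptide repeat protein, and *AT4G05150*, annotated as an Octicosapeptide/Phox/Bem1p family protein, carried peaks wholly beyond 1 kb at every stage. At *TPR14* the summit lay 2195 to 2310 bp from the TSS, and the fold enrichments were 9.74, 8.72, 7.55 and 9.14. At *AT4G05150* it lay 1749 to 1788 bp from the TSS, with 9.99, 7.48, 8.81 and 8.31, and a second peak near the TSS was present at each stage. *AT2G44430*, which encodes a bromodomain protein, had its summit 1011 to 1071 bp from the TSS, just beyond the limit, with 9.87, 6.41, 6.18 and 7.83. *AT3G51950* (CCCH zinc finger and RNA recognition motif) and *AT5G19090* (heavy metal transport family) had wide peaks of 2406 to 2664 bp. At *AT5G19090* the summit at S4 lay 2053 bp from the TSS, against 1197 to 1272 bp at the other stages, within the same peak.

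The summits farthest from a TSS, among regions far at 2 or more stages, were at the ends of long genes, 3 of them for myosins, the motor proteins that move organelles along actin. Among all 35 genes with a peak and myosin in the product name, 4 held a far summit (11.4%, 4.54 to 25.95), close to the 11.7% of all genes. At *XIB* (AT1G04160, 10341 bp, 37 introns) the peak lay 9809 to 9860 bp from the TSS in the last intron at all 4 stages, with fold enrichments of 3.52, 2.597, 3.25 and 3.19. The start of another protein-coding gene lay within 1 kb beyond its summit. At *XIF* (AT2G31900) the peak was present at S2, S4 and S8, 9445 to 9465 bp from the TSS, with 2.91, 2.57 and 2.41. At *ATM1* (AT3G19960) it lay in the 3′ UTR, 8514 to 8584 bp from the TSS, with 3.78, 3.21, 3.25 and 4.76. The kinase gene *AT1G66880* carried it in its last exon at 8089 to 8267 bp, and the polymerase superfamily gene *AT5G15700* in its 3′ UTR at 6844 to 6950 bp, again less than 1 kb before the start of another protein-coding gene. Except at *ATM1* at S8 (94.9 percentile), these peaks ranked between the 13.8 and 81.0 percentiles of their lists.

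Of the regions far at 1 stage with no peak elsewhere, the strongest at S0 were on *AT1G04350* (oxygenase family, fold enrichment 4.23, in the 3′ UTR), *PAP10* (a purple acid phosphatase, 3.97, in a 5′ UTR of 1 transcript) and *AT1G62050* (ankyrin repeats, 3.91). At S2 they were on *bHLH071* (2.96), *AT4G03420* (2.93) and *AP2* (2.75, in the last exon). At S4 they were on *NUB* (3.22, in the 3′ UTR), a zinc finger gene that acts in stamen and carpel growth, *AT4G19420* (2.97) and *AT1G15290* (2.88). At S8 they were on *KAI2*, the karrikin receptor (3.90), *AT5G41810* (3.55) and *NCED6*, of abscisic acid synthesis (3.39). The lists hold no value where no peak was listed, so signal below the limit of a list was not seen.

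Of 30 regulators of the meristem, of polarity and of the flower, all longer than 1 kb, 23 had an intragenic peak at some stage and 12 of them a far one (33.0% to 70.8%), against 11.7% of all genes with a peak. The genes of the list are long, with a median of 4820 bp and 8.5 introns. The 12 are *CLV1*, *MP*, *KNAT2*, *ARF6*, *AP2*, *KNAT6*, *STM*, *LFY*, *PHV*, *ANT*, *PHB* and *KNAT1*. Only *CLV1* (AT1G75820), the receptor kinase gene that limits the stem cell pool, was far at all 4 stages. Its peaks of 1574 to 2473 bp had their summits in the long exon 1 (2909 bp), 1752 to 1955 bp from the TSS, with fold enrichments of 4.99, 3.43, 4.03 and 3.89, at the 90.2, 68.6, 89.1 and 85.1 percentiles. No separate peak near the TSS was listed at any stage.

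The class I KNOX genes, homeobox genes that keep meristem cells undifferentiated, gave 4 of the 12. *KNAT2* (AT1G70510) had 2 far peaks at S0. The first lay in the 4162 bp long intron 3, 2333 bp from the TSS, with a fold enrichment of 3.21. The second lay in exon 4, 5266 bp from the TSS, with 3.97, and recurred in that exon at S2 (2.69) and S4 (2.90) but was not listed at S8. *KNAT6* (AT1G23380) had its far peak 4768 to 4908 bp from the TSS, and again none at S8. The summit fell in exon 4 at S0 (2.71) and S2 (2.98) and in intron 4 at S4 (2.51). Between lists, overlapping far summits were shifted by a median of 53 to 72 bp. A summit near an exon border, here or at the genes below, can thus not be assigned to 1 side. The S4 summits of *KNAT2* and *KNAT6* both lie beside such a border. The start of another protein-coding gene lay within 1 kb downstream of each of these *KNAT6* summits. Exon 4 is 242 bp long at both genes. *STM* (AT1G62360) had a peak in exon 2 at S0 (3.21) and S2 (2.62) only, and *KNAT1* (AT4G08150) a weak one in intron 2 at S2 (2.35). The values of *STM* and *KNAT1* fall outside the number of genes set for the list and were added after they were seen.

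The auxin response factor gene *MP* (AT1G19850) was far at S0, S4 and S8, with fold enrichments of 3.88, 3.66 and 3.195 in peaks of 1932 to 2482 bp, and at S2 its summit was within 1 kb of the TSS. *ARF6* (AT1G30330) carried a peak of 4717 bp at S2 with a fold enrichment of 5.65 (98.1 percentile) and its summit in exon 2, 1184 bp from the TSS. At S4 and S8 it had weaker peaks at the other end of the gene, 4598 and 4492 bp from the TSS, with 2.48 and 2.12, each beside a separate peak near the TSS. *AP2* (AT4G36920), which specifies the perianth, had far peaks at S0, S2 and S4 in different parts of the gene, in intron 5 (2.501), in exon 11 (2.75) and in intron 7 (3.25). A peak near its TSS was listed at all 4 stages. *LFY* (AT5G61850), a master regulator of floral fate that was likewise added after its values were seen, had 2 far peaks at S4, with 2.33 in exon 2 and 3.08 in exon 3, and 1 at S8 in exon 3 with 2.22. Another protein-coding gene started within 1 kb downstream of both exon 3 summits of *LFY*, and of the exon 11 summit of *AP2*.

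**Figure D5:**
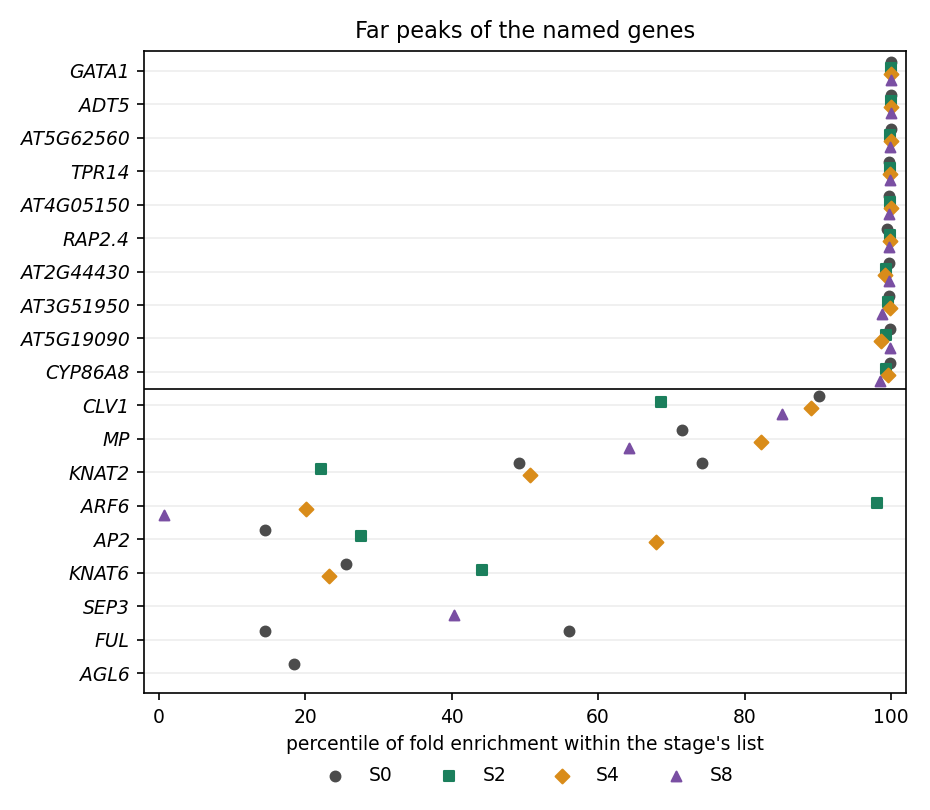
Strength of the far peaks (x axis, percentile of fold enrichment within the stage's list) of the 10 strongest regions far at all 4 stages (above the line) and of regulators of the meristem and flower and MADS-box genes (below), with 1 point per far peak and a colour and shape per stage. The 10 strongest lie between 98.5 and the top of the lists, and the genes plotted below the line between 0.709 (ARF6 at S8) and 98.1 (ARF6 at S2).

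Introns of some MADS-box genes, such as *AG* and *FLC*, are known to carry regulatory sequence. Of 29 such genes for flowering and floral organs, 15 had an intragenic peak and 3 a far one (7.05% to 45.2%), an interval that holds the 11.7% of all genes with a peak. The median gene of this list has 7 introns. *FUL* (AT5G60910, listed as AGL8), which acts in flowering and fruit growth, had 2 far peaks at S0, in intron 1 with a fold enrichment of 3.38, 1147 bp from the TSS and 194 bp from an alternative start, and in intron 3 with 2.501. *AGL6* (AT2G45650) had 1 in its last intron at S0 (2.58). Both *FUL* and *AGL6* also had a peak near the TSS at S0. The median fold enrichment of all far peaks at S0 was 2.97. *SEP3* (AT1G24260), a cofactor of the floral organ identity proteins, had 1 far peak at S8 (2.77, 40.3 percentile), of 1404 bp. Its summit fell in an exon of 42 bp, 1917 bp from the TSS. In a peak of that width, so short an exon cannot be separated from the introns beside it. *AG*, *SHP1*, *SHP2*, *STK* and *FLC* had no intragenic peak at any stage.

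Of 30 chromatin and autonomous pathway regulators, 21 had an intragenic peak and 0 a far one (a Wilson interval of up to 15.5%). These genes are long, with a median of 5799 bp, and have a median of 15.5 introns. Splicing regulators likewise had 13 of 14 genes with a peak and 0 with a far one (up to 22.8%), at a median of 6 introns. Both intervals hold the 11.7% of all genes with a peak. Of 9 circadian clock genes, 7 had a peak and 2 a far one, both at S0 only. *PRR5* carried it in its last intron (2.85), and *LHY* in exon 9, 3658 bp from the TSS (2.28, 3.72 percentile). Whether the lists differ from each other was not tested, and their genes were known from earlier results of these data.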

How the data were processed

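H3K27ac ChIP-seq peaks of 4 stages were analysed. The authors aligned reads to TAIR10 with Bowtie (1.1.2 in the submitters' processing notes), with 2 seed mismatches and up to 10 places in the genome, removed duplicates with Picard (2.60), and called peaks with MACS2 (2.1.0) at p 0.01 on the pooled replicates against the combined inputs, followed by a reproducibility limit (IDR) of 0.1. The deposited lists give the fold enrichment over the control and the −log10 p of each peak, both computed by the authors with MACS2, and the summit position. They hold no read counts, so depth is unknown, and strength was compared only as a rank within a list, while fold enrichments of different lists are set side by side.

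Summits were placed in protein-coding genes of the RefSeq TAIR10.1 annotation, whose nuclear chromosomes are those of TAIR10 while its gene models can differ from the authors' annotation. Far peaks of different stages were joined when they overlapped by 1 bp or more, and the peak of highest rank by −log10 p stood for its region. Intervals are 95% Wilson intervals over peaks, regions or genes. No test between stages was possible, since each stage has 1 list. Columns of per-sample values left unused numbered 0. Genes were named by rule: the 10 regions of highest mean rank far at all 4 stages, the 5 farthest regions far at 2 or more stages, the 3 strongest per stage without a peak elsewhere, up to 6 genes per list, and the 3 S0 peaks nearest to the limit on each side. Regions with repeated sequence at a summit were left out of the first 3 groups. Members and gene lists were chosen with earlier results of these data known. Protein families and the intron pattern were chosen after their values were seen. Alternatives changed the summit, the start, the distance, the peaks kept and the joining. Scripts were tested on simulated data. Python 3.11.15, NumPy 2.4.6, pandas 2.3.3, SciPy 1.17.1, matplotlib 3.10.9 and bedtools 2.31.1 were used.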

Additional observations from a re-analysis of the deposited data

How the results depend on the processing

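Of 59 values recomputed for 8 results, 30 stayed inside the interval of the reported value and 29 moved out of it. When each peak was placed by its midpoint, the far shares of S2, S4 and S8 were 8.51%, 7.88% and 8.64%, the share of summits in introns 18.5%, of far peaks with a peak near the TSS 21.8% and of regions far at all 4 stages 27.5%. With the nearest annotated transcript start, the far shares were 8.07%, 5.93%, 5.82% and 5.99%, and the shares in introns, near another start and with a peak near the TSS were 12.6%, 24.1% and 26.6%. With a limit of 2 kb, the far shares were 2.94%, 1.83%, 1.83% and 2.08%, and 38.6% had a peak near the TSS. With the stronger 50% of each list, the far shares were 8.29%, 8.51%, 8.70% and 8.77%, with 10.96% in introns, 6.55% with a peak near the TSS and 27.6% far at all 4 stages. With peaks of a list within 500 bp joined, the far share was 8.44% at S0 and 6.87% at S8, and 10.99% had a peak near the TSS. With a reciprocal overlap of 50%, 19.1% of regions were far at all 4 stages. Some of these moves are fixed in part by the settings. The far shares can only fall with the 2 kb limit or the nearest transcript start. With that start, no far summit can have an alternative start of its gene within 1 kb. In the stronger 50%, a partner peak near the TSS must itself pass the cut. Joining merges partners within 500 bp. The cause of the other moves was not tested. Genes of every type and the removal of repeated sequence moved none of the values they were applied to.

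No paired analysis was possible because the lists were called on pooled replicates and hold no value per replicate. For the same reason no replicate was left out. Depth is unknown, and signal below the limit of a list is not seen.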
